A study of Mus musculus with 22 samples.

Results

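Mitochondrial respiratory chain genes were taken as all genes whose symbol starts with Nduf, Sdha to Sdhd, Uqcr, Cox4 to Cox8 or Atp5, with the muscle isoforms Cox6a2, Cox7a1 and Cox8b kept apart. A probe named for such a gene was present for 81 genes, and 79 of them passed the filter on dim probes (a signal well above background in either channel, on both arrays of some comparison) and are the members described here, out of 26207 genes tested on the array. Cox4i2 and Cox7b2 did not pass that filter. The members comprised 32 subunits of complex I, 4 of complex II, 8 of complex III, 12 of complex IV and 17 of complex V, and 6 further genes that start the same way but are assembly factors (Ndufaf1, Ndufaf3, Ndufaf4, Ndufaf5 and Ndufaf7) or a supercomplex factor (Cox7a2l). None of the 13 subunits encoded by mitochondrial DNA could be tested, so all values below concern the nuclear genes of the chain.

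Liver RNA came from ICR mice aged 8 weeks: hypophysectomised (Hypox) males (n = 6) and females (n = 7), whose pituitary had been removed in adulthood; Hypox males and females given growth hormone (GH) and killed 30 min later (n = 7 and 7) or 90 min later (n = 7 and 7), or given GH again after 4 h and killed 30 min after that dose (n = 8 and 6); and sham-operated, vehicle-injected males (n = 7) and females (n = 8). RNA was pooled from 2 to 5 mice, and each of 11 pairings of groups was hybridised on 2 arrays with the dyes swapped, 22 arrays in all. On both arrays of males given 2 injections the Hypox male pool is given as 5 mice, out of 6 Hypox males. By these numbers the 2 pools shared mice, so those arrays are not fully separate replicates. Array labels call the sham groups intact and untreated, and the series' design text names male Hypox mice as the partner of females given 2 injections where the array labels name females. On those arrays the ratios of 4 Y-linked genes lay between -0.14 and 0.20, whereas on all 6 arrays of males over females they were 2.52 or more. Hypophysectomy removes every pituitary hormone, so the Hypox groups lack more than GH, and how complete the removal was is not given in the sources used here.

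The respiratory chain passes electrons from NADH (complex I) and succinate (complex II) through complex III to oxygen at complex IV, and complex V uses the proton gradient so formed to make ATP. Most subunits are encoded in the nucleus and only a few by mitochondrial DNA, and the complexes are put together by dedicated assembly factors. In liver the chain supplies the ATP for glucose and urea synthesis, and thyroid hormone and GH, both dependent on the pituitary, are known to act on mitochondrial gene expression. Transcription factors NRF1, GABP (an ETS factor), YY1 and ERR alpha are known regulators of the nuclear chain genes, with the coactivators encoded by Ppargc1a and Ppargc1b.

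All 79 members were well above background on all 22 arrays, and they were bright: their median brightness percentile among tested genes was 97.6 (42.6 for the dimmest member, 99.7 for the brightest), and 71 of them lay in the brightest 10%. A dye term was fitted for every gene. It was counted as an effect for 36 of the 79 members (45.6%), against 31.0% of the brightest 10% of genes and 11.0% of all genes. The ratio on each of the 2 dye-swapped arrays is therefore given below. The values are log2 ratios of the first-named over the second-named group, as the mean of 2 arrays ± SE from a limma fit to all 22 arrays. A gene was called when its Benjamini-Hochberg adjusted p over all tested genes was under 0.05 and both arrays went the same way. Counts of members at an unadjusted p under 0.05 are given below without the share of all genes at that threshold. No excess in the members is read from them. In a pool of whole liver, fewer cells that express a gene and less RNA per cell cannot be told apart. Levels of different genes were not compared, since each was read by its own probe, and 17 members had more than 1 probe.

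Loss of the pituitary was followed by lower transcript of a large share of the chain in males. In Hypox over sham males 36 of 79 members (45.6%) fell, where 18.6% of all genes were called lower, and 6 members rose, where 18.8% of all genes were called higher. Among the other 2550 genes of the brightest 10%, 28.0% fell and 29.5% rose. The members' median log2 ratio was -0.19 (-0.21 on array 1 and -0.14 on array 2), beside 0.01 over all genes, and 66 of the 79 ratios lay below 0. With the array ratios centred on their median in place of loess, the members' median was 0.08 and none was called, as described below. Without array 1, 24 members were called, and 29 without array 2, while 18 were called whichever array was left out, 15 of them lower and 3 higher.

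In Hypox over sham females 19 members (24.1%) fell, where 16.5% of all genes were called lower, and 8 rose (10.1%), where 14.6% of all genes were called higher. The share that fell was close to the 21.3% of the other brightest genes that fell there. The female median was -0.06 (-0.08 on array 1 and -0.02 on array 2), beside 0.00 over all genes, and 53 of 79 ratios lay below 0; it was 0.03, with no member called, under median centring. The female count was 15 without array 1 and 12 without array 2, and 7 members were called whichever array was left out. The red channel of female array 2, which held the Hypox RNA, had 57.1% of its spots well above background, the lowest share of any channel, against 70.5% or more in the red channel of every other array.

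**Figure D1:**
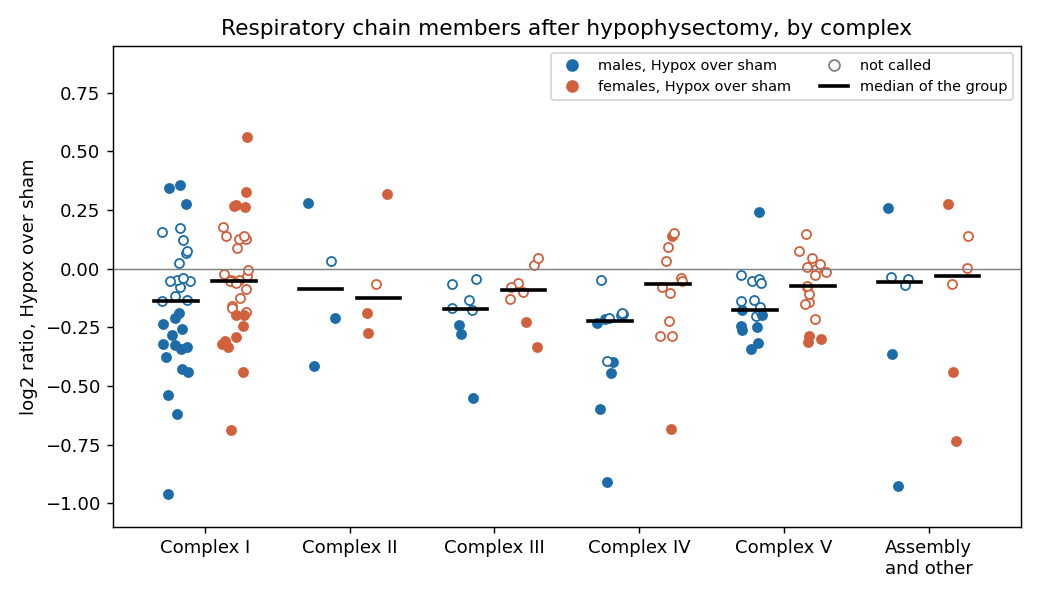
Log2 ratio, Hypox over sham, of each of the 79 members by complex, males at the left and females at the right of each pair; filled points were called, open points were not, and bars are medians. With loess, as plotted, all 12 members of complex IV and all 8 of complex III lie below 0 in males (median centring turned some above 0), and the lowest points near -0.9 in males are Ndufa1, Cox5a and Ndufaf4.

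The complexes did not move as blocks. In males 15 of 32 complex I members fell and 3 rose (median -0.14), 2 of 4 complex II members fell and 1 rose (-0.09), 3 of 8 complex III members fell (-0.17), 7 of 12 complex IV members fell (-0.22), and 7 of 17 complex V members fell and 1 rose (-0.18). Under loess, complexes III and IV had every ratio below 0 in males, 8 of 8 and 12 of 12, although 5 members of each were not called and median centring turned some of them, such as Uqcr10 (0.0162) and Cox7a2 (0.0832), above 0. In females 9 complex I members fell and 5 rose (median -0.05), 2 of complex II fell and 1 rose (-0.13), 2 of complex III fell (-0.09), 1 of complex IV fell and 1 rose (-0.07), and 3 of complex V fell (-0.07). No difference between complexes was tested.

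The largest falls were in 3 genes and in both sexes. Ndufa1, an accessory subunit of the membrane arm of complex I, had ratios of -0.996 and -0.92 on the male arrays and of -0.82 and -0.56 on the female arrays. It fell by 0.96 ± 0.07 in males (adjusted p = 8.48e-07), or 1.94-fold, and by 0.69 ± 0.07 in females (adjusted p = 2.72e-05), or 1.61-fold. Its second probe read -0.80 in males and -0.63 in females. Both dye orientations and both probes thus had the Hypox pool lower than the sham pool.

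Cox5a, a nuclear subunit of complex IV on its matrix side, had ratios of -1.14 and -0.68 in males and of -0.97 and -0.39 in females. The fall was 0.91 ± 0.10 in males (adjusted p = 1.29e-05) and 0.68 ± 0.10 in females (adjusted p = 0.000205), with array 1 the larger in each sex. Ndufaf4, an assembly factor of complex I, had ratios of -1.02 and -0.84 in males and of -0.52 and -0.95 in females. It fell by 0.93 ± 0.16 in males (adjusted p = 0.000524) and by 0.74 ± 0.16 in females (adjusted p = 0.00354). In females the call of Ndufaf4 was lost without array 2 (adjusted p = 0.172), and its other probes read -0.90 and -0.65 in males and -0.64 and -0.32 in females.

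Promoter sequence from RefSeq was matched for 67 of the 79 members, as the 250 bases before and 50 after the start (GRCm38.p6). The promoters below are those of the 3 genes that fell most in both sexes, and of Uqcr11 and Atp5k, chosen after their values were seen as other members lower in both sexes that carry an NRF1 match. Capitals mark GCGCATGCG, the NRF1 core, on either strand (it overlaps its own reverse complement by all but 1 base at each end, so that 10 capitals stand for a match on both strands), and CCGGAAGT, the ETS core. They lie at chrX:37191189-37191488 (minus strand) for Ndufa1, chr9:57520982-57521281 (plus) for Cox5a, chr4:24897833-24898132 (plus) for Ndufaf4, chr10:80406772-80407071 (minus) for Uqcr11 and chr5:108434350-108434649 (minus) for Atp5k. Each is written 5′ to 3′ on the strand of its gene.
Ndufa1: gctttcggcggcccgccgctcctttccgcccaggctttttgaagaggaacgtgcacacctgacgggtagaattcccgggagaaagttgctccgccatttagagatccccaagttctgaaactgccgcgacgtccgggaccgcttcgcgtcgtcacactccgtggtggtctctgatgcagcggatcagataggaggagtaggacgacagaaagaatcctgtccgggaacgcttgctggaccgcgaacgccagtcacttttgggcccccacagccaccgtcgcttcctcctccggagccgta
Cox5a: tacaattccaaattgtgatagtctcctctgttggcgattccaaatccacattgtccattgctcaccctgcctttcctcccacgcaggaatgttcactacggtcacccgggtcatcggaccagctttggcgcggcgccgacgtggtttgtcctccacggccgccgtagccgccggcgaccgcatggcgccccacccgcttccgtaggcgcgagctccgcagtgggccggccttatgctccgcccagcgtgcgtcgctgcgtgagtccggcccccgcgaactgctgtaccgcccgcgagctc
Ndufaf4: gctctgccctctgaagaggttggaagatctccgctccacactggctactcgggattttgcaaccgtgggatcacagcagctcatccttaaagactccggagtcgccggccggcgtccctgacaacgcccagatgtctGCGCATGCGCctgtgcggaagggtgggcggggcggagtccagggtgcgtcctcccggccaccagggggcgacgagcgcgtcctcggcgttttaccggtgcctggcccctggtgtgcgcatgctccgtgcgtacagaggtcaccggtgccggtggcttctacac
Uqcr11: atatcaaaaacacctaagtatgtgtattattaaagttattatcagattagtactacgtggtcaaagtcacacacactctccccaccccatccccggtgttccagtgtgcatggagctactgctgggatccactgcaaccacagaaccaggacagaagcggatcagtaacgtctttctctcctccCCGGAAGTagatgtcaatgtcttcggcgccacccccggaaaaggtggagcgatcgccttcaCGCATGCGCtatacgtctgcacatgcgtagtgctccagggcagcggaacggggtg
Atp5k: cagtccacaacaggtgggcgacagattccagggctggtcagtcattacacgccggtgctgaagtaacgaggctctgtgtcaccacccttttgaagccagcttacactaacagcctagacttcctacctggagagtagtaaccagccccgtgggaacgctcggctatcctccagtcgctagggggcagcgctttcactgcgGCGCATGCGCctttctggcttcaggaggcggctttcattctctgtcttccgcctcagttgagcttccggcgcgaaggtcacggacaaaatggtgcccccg

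The NRF1 match lies 113 bases before the start in Ndufaf4, 5 in Uqcr11 and 50 in Atp5k, and the ETS match of Uqcr11 lies 66 before it. Neither Ndufa1 nor Cox5a held any of the searched motifs in this window. Searched on both strands, GCGCATGCG was in 9 of the 67 promoters (13.4%) and in 1.81% of all 27025 promoters of the table, CCGGAAGT in 5 (7.46%) and 4.00%, AAGATGGCG (YY1) in 6 (8.96%) and 404 of the 27025, and TCAAGGTCA (ERR alpha) in 2 (2.99%) and 0.407%. At least 1 motif was in 21 members (31.3%) and in 7.36% of all promoters. Of the 6 members with the YY1 motif 5 were complex I genes, where it lay after the start. Any of the motifs was in 4 of 17 members that fell in both sexes and in 7 of 25 that were called in neither.

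In complex I subunits moved in both directions. Ndufa10, an accessory subunit of the membrane arm, had ratios of -0.59 and -0.65 in males and of -0.19 and -0.69 in females; it fell by 0.62 ± 0.09 in males (adjusted p = 0.000212) and by 0.44 ± 0.09 in females (adjusted p = 0.00318), the female call being lost without array 2. Ndufa8, which faces the intermembrane space, was -0.20 and -0.87 on the male arrays and fell by 0.54 ± 0.07 there (adjusted p = 8.47e-05), with its call lost in the fit with no dye term. Ndufv1, the core subunit that takes electrons from NADH, fell by 0.43 ± 0.07 in males (-0.51 and -0.35) and by 0.24 ± 0.07 in females (-0.19 and -0.29), where leaving out either array ended its call. The core subunit Ndufs1 was at -0.19 ± 0.06 in males (-0.24 and -0.14; adjusted p = 0.0354), called lower, but not without either array, and at -0.02 in females. Among the smaller falls called in both sexes were those of Ndufs8, a core iron-sulphur subunit, by 0.33 in males and 0.31 in females, which was called in both sexes whichever array was left out.

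Some complex I subunits went the other way. Ndufa2, an accessory subunit of the matrix arm, was 0.25 and 0.46 in males and 0.17 and 0.35 in females, and it rose by 0.36 ± 0.05 in males (adjusted p = 0.000154) and by 0.26 ± 0.05 in females (adjusted p = 0.00195), the female call being lost without array 2. Ndufa7, another accessory subunit, rose by 0.34 ± 0.06 in males (0.34 and 0.35; adjusted p = 0.000547) and was at -0.03 ± 0.06 in females (0.02 and -0.08; adjusted p = 0.757). Ndufs4, an accessory subunit close to the NADH-oxidising part, rose by 0.33 ± 0.06 in females (0.35 and 0.31; adjusted p = 0.000762), and male Hypox over sham gave 0.07 (adjusted p = 0.326). Ndufs3, a core subunit of the matrix arm, was 0.78 and 0.34 in females, called higher at 0.56 ± 0.19 (adjusted p = 0.0432), against 0.35 and -0.63 on the male arrays. Its call was lost without either array and with no dye term (adjusted p = 0.0525).

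In complex II, the link to the citric acid cycle, subunits moved in opposite directions. Sdhb, the iron-sulphur subunit, was 0.28 and 0.27 in males and 0.22 and 0.42 in females; it rose by 0.28 ± 0.06 (adjusted p = 0.00172) and by 0.32 ± 0.06 (adjusted p = 0.00101). Leaving out male array 1 or female array 2 ended those calls. Sdha, the flavoprotein subunit that oxidises succinate, was -0.33 and -0.51 in males and -0.07 and -0.30 in females. It fell by 0.42 ± 0.06 in males (adjusted p = 0.000148) and by 0.19 ± 0.06 in females (adjusted p = 0.0297), but its second probe read -0.14 in males and 0.17 in females, and with both probes averaged the female ratio was -0.0079 (adjusted p = 0.931). The female call was also lost without either array, with no dye term and with the scanner's log ratio. The membrane anchor subunit Sdhd fell by 0.21 ± 0.05 in males (-0.28 and -0.14) and by 0.28 ± 0.05 in females (-0.28 and -0.27), the male call being lost without array 1. The other anchor gene, Sdhc, was called in neither sex.

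In complex III no member rose. Uqcr11, a small accessory subunit, was -0.53 and -0.58 in males and -0.24 and -0.43 in females; it fell by 0.55 ± 0.05 (adjusted p = 4.91e-06) and by 0.33 ± 0.05 (adjusted p = 0.000417), and both calls held whichever array was left out. Uqcrq fell by 0.28 ± 0.05 (-0.41 and -0.15) and Uqcr10 by 0.24 ± 0.06 (-0.33 and -0.15) in males, and Uqcrh, the hinge protein gene, by 0.23 ± 0.07 in females (-0.43 and -0.02). In the other sex Uqcrq (-0.13) and Uqcr10 (0.02) in females and Uqcrh (-0.18) in males were not called. The calls of Uqcrq and Uqcr10 were lost without array 1, and that of Uqcrh without either array. The core subunit gene Uqcrc1 (-0.06 in males, 0.04 in females) and the Rieske iron-sulphur gene Uqcrfs1 (-0.17 and -0.08) were not called.

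In complex IV the male falls were spread over subunits. Cox6a1, the isoform of subunit 6a that liver uses, was -0.85 and -0.35 in males and fell by 0.60 ± 0.10 (adjusted p = 0.000533); its female ratios of -0.57 and 0.00 were not called under the rule on array direction. Ndufa4, first assigned to complex I and now counted with complex IV, fell by 0.45 ± 0.08 in males (-0.68 and -0.21; adjusted p = 0.00082), a call lost with no dye term, and was -0.44 and -0.01 in females. Cox7a2, the liver isoform of subunit 7a, was called lower in males at -0.19 ± 0.07 (-0.38 and -0.01; adjusted p = 0.0342) with 1 array near 0, a call lost without either array and with no dye term, and was at 0.15 in females, not called. Cox4i1, an early-assembling subunit, was not called in males (-0.05) and was called higher in females at 0.14 ± 0.05 (0.08 and 0.20; adjusted p = 0.0392), but not without either array. Cox8a (-0.21 in males, -0.05 in females) and Cox6b2 (-0.20 and 0.09), the isoform known from testis, were not called.

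In complex V the subunit c genes split. Atp5g1 fell by 0.31 ± 0.05 in males (-0.37 and -0.26; adjusted p = 0.00026) and by 0.29 ± 0.05 in females (-0.30 and -0.28; adjusted p = 0.00077), and both calls held whichever array was left out. Atp5g3 fell by 0.26 ± 0.08 in males (-0.45 and -0.08), a call lost without array 2 and with no dye term, and Atp5g2 rose by 0.24 ± 0.05 there (0.19 and 0.29; adjusted p = 0.00151), with female values of -0.06 and 0.08. These 3 genes encode the same mature protein of the rotating ring. Atp5k, subunit e, fell by 0.34 ± 0.08 in males (-0.48 and -0.20) and by 0.30 ± 0.08 in females (-0.41 and -0.20), and Atp5e, the epsilon subunit of the catalytic head, by 0.24 ± 0.07 in males (-0.24 and -0.25; adjusted p = 0.021) and by 0.31 ± 0.07 in females (-0.46 and -0.17). Each of those calls was lost without array 1, and that of Atp5e in males also without array 2. For Atp5b, the catalytic beta subunit, the 2 arrays disagreed in sign in each sex, -0.36 and 0.31 in males and -0.36 and 0.65 in females, so that no call was possible.

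Among the remaining members, Ndufaf1, another assembly factor of complex I, fell by 0.36 ± 0.10 in males (-0.39 and -0.34; lost without either array) and by 0.44 ± 0.10 in females (-0.29 and -0.59; lost without array 2). Ndufaf7, a methyltransferase needed for complex I assembly, rose by 0.26 ± 0.07 in males (0.25 and 0.27) and by 0.28 ± 0.07 in females (0.31 and 0.25), and neither call held without either array. Cox7a2l, which links complexes III and IV, was at -0.04 in males and -0.06 in females, not called.

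**Figure D2:**
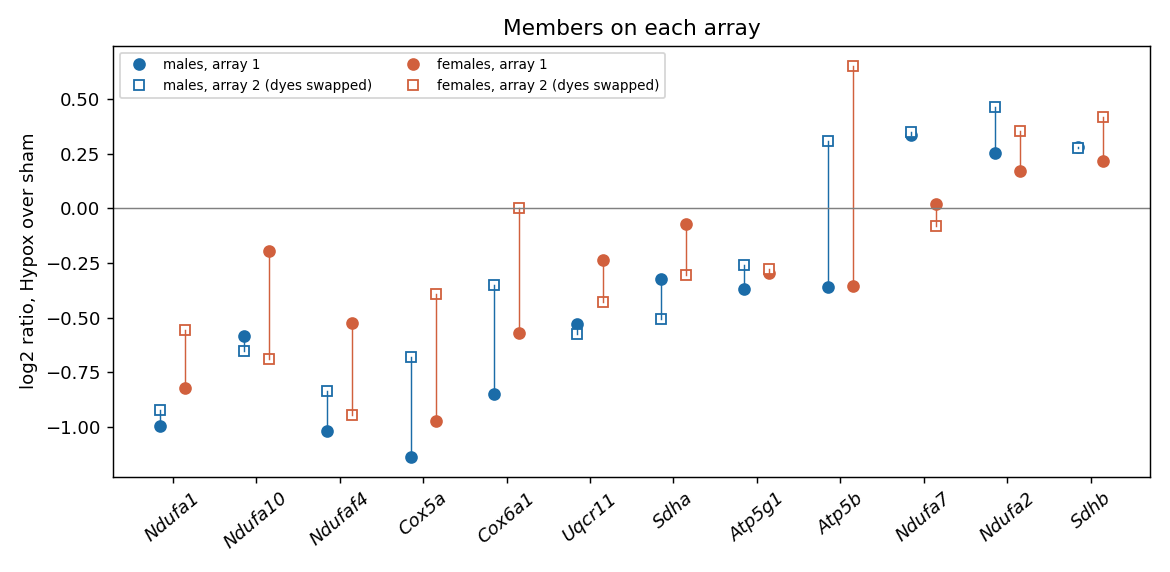
Log2 ratio, Hypox over sham, of 12 members on each of the 2 arrays per sex; circles are array 1 and squares array 2, with the dyes swapped. The arrays of Ndufa1, Uqcr11 and Atp5g1 lie on the same side of 0 in both sexes, whereas those of Atp5b lie on opposite sides.

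Other probes bore on some of these calls. Of the 42 members called in males 11 had other probes, and of their 15 other probes 2 went the other way, both of Ndufv3, a small accessory subunit: the kept probe was at -0.44, the others at 0.55 and 0.38. In females 6 called members had 8 other probes and 3 went the other way, 2 of Ndufv3 (0.27 and 0.32 against -0.29) and 1 of Sdha. For Ndufab1, the acyl carrier protein of complex I and of lipoic acid synthesis, the kept probe was at -0.32 in males and -0.34 in females and the other at -0.91 and -0.71. A pseudogene carrying the gene's name was in the RefSeq table for 9 members, and transcripts of such copies may add to their signal.

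No member was called in opposite directions in the sexes. Of the 79 members 18 fell in both sexes, 3 rose in both (Ndufa2, Sdhb and Ndufaf7), 18 fell in males and were not called in females, 3 rose in males and were not called in females, 1 fell and 5 rose in females and were not called in males, and 31 were called in neither. Across the 79 members Pearson's r of the male and female ratios was 0.81 (Spearman's rho 0.79). This describes 2 comparisons that share no pools. Genes are not independent replicates, and the arrays share probes and dye effects. The same overlap and correlation over all tested genes are not given here. Nothing particular to the members is therefore read from these counts or from r.

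**Figure D3:**
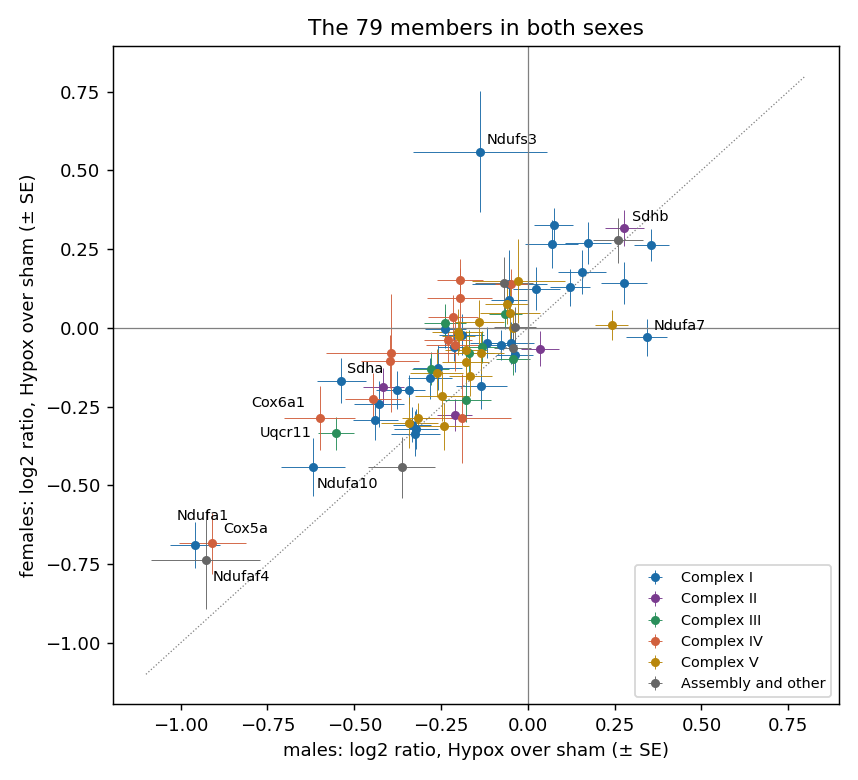
Female against male log2 ratio, Hypox over sham, of the 79 members with SE bars, coloured by complex; the dotted line marks equal ratios. Most points lie to the lower left, Ndufa1, Cox5a and Ndufaf4 farthest, and 63 of 79 lie above the dotted line, with the male ratio below the female; under median centring the median difference was 0.02.

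The difference between the sexes was tested in the same fit. The male ratio was below the female ratio for 63 of 79 members, with a median difference of -0.12, beside 0.01 over all genes, but under median centring the median difference was 0.02. Only 1 member was called, higher in males by the difference, where 3.21% of all genes were called, and none was called lower, where 3.48% were; 19 members had an unadjusted p under 0.05. That member was Ndufa7, with a difference of 0.37 ± 0.08 (95% interval 0.19 to 0.55; adjusted p = 0.0192). Its other probe read 0.28 in males and 0.10 in females. The call was lost without replicate 1 (adjusted p = 0.137), without replicate 2 (0.263), with no dye term (0.0544) and with the scanner's log ratio (0.0525). For Ndufa1 the difference was -0.27 (interval -0.49 to -0.05; adjusted p = 0.148) and for Cox5a -0.22 (-0.52 to 0.07; adjusted p = 0.377), so that neither was shown to differ between the sexes.

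Between sham males and sham females few members differed. Of 79 members 4 were higher in males, where 5.02% of all genes were called higher, and 0 were lower, where 3.74% were (limma; 17 members had an unadjusted p under 0.05 in either direction). Ndufs3 was 0.81 and 0.90 (0.86 ± 0.19; adjusted p = 0.0143), and Cox7c, a small subunit of complex IV, was 0.45 and 0.88 (0.66 ± 0.19; adjusted p = 0.0452). Uqcr10 was 0.30 and 0.19 (0.25 ± 0.06; adjusted p = 0.0217) and Uqcr11 0.21 and 0.28 (0.24 ± 0.05; adjusted p = 0.0095). Each of the 4 calls was lost without either array. The ratios of Ndufs3 and Cox7c also differed in sign between the arrays of other pairings, 0.35 and -0.63 for Ndufs3 in Hypox over sham males and 0.60 and -0.76 for Cox7c in Hypox over sham females. Of the subunits named whatever their values, Ndufa4 (0.51 and 0.01; adjusted p = 0.0682), Cox7a2 (0.40 and 0.02; 0.0776) and Cox7a2l (0.11 and 0.24; 0.0667) came nearest, and Cox5a was 0.42 and -0.34, with the arrays opposed.

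GH given to Hypox mice left the members largely uncalled within the first 90 min. After 30 min 0 members were called in males, where 1.78% of all genes were higher and 0.721% lower (15 members at an unadjusted p under 0.05), and 0 in females, where 0.0114% were higher and 0.00763% lower (1 member). After 90 min Atp5md, a small membrane subunit of complex V, was higher in males (0.11 and 0.26; 0.19 ± 0.05; adjusted p = 0.0454), where 3.4% of all genes were higher, and 0 members were lower, where 1.58% were. That call was lost without either array. In females 0 members were called at 90 min, where 2.34% were higher and 0.82% lower (14 members at an unadjusted p under 0.05). Of the 3 genes with the largest falls after hypophysectomy, Ndufa1 was 0.28 and 0.23 at 90 min in males (adjusted p = 0.0667), Cox5a 0.05 and 0.46 (0.164) and Ndufaf4 0.42 and 0.47 (0.139), none of them called.

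After 2 injections 2 members were higher in males, where 10.6% of all genes were called higher, and 4 were lower, where 8.7% were. Ndufaf4 was 0.77 and 0.43 and rose by 0.60 ± 0.16 (adjusted p = 0.0174), and Cox7a2 was 0.11 and 0.52 and rose by 0.32 ± 0.07 (adjusted p = 0.00467). Ndufa6, an accessory subunit of the matrix arm, fell by 0.28 ± 0.07 (-0.38 and -0.18), Ndufb5 of the membrane arm by 0.24 ± 0.07 (-0.26 and -0.21), and Sdhb and Ndufa9 were the other falls, by 0.24 and 0.19. In females Cox7a2 rose by 0.27 ± 0.07 (0.06 and 0.48; adjusted p = 0.0279), where 4.4% of all genes were called higher, and Ndufa6 fell by 0.24 ± 0.07 (-0.26 and -0.22; adjusted p = 0.0422), where 4.03% were called lower. Leaving out 1 array left between 0 and 2 of the 6 male calls and neither of the female ones. The male comparisons with GH share the Hypox group with Hypox over sham, so values are given side by side only: Ndufaf4 was at -0.93 in Hypox over sham males and 0.60 after 2 injections, Sdhb at 0.28 and -0.24, and Ndufa1 at -0.96 and 0.03.

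The GH responses were not shown to differ between the sexes: for the difference at 90 min 0 members were called, where 0.00763% of all genes were higher and 0% lower (18 members at an unadjusted p under 0.05), and for that after 2 injections 0, where 1.11% were higher and 0.866% lower (3 members). For Ndufaf4 after 2 injections the male minus female difference was 0.37 with a 95% interval of -0.12 to 0.85. In Hypox males over Hypox females 1 member, Cox7a2l, was higher (0.11 and 0.37; 0.24 ± 0.05; adjusted p = 0.0458), where 0.862% of all genes were called, and 0 were lower, where 0.763% were. That call was lost without either array, and 63 of the 79 ratios lay below 0. At 30 min after GH 0 members were called between males and females, where 0.275% were higher and 0.229% lower (15 at an unadjusted p under 0.05), with 74 of 79 ratios below 0 and a median of -0.08.

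**Figure D4:**
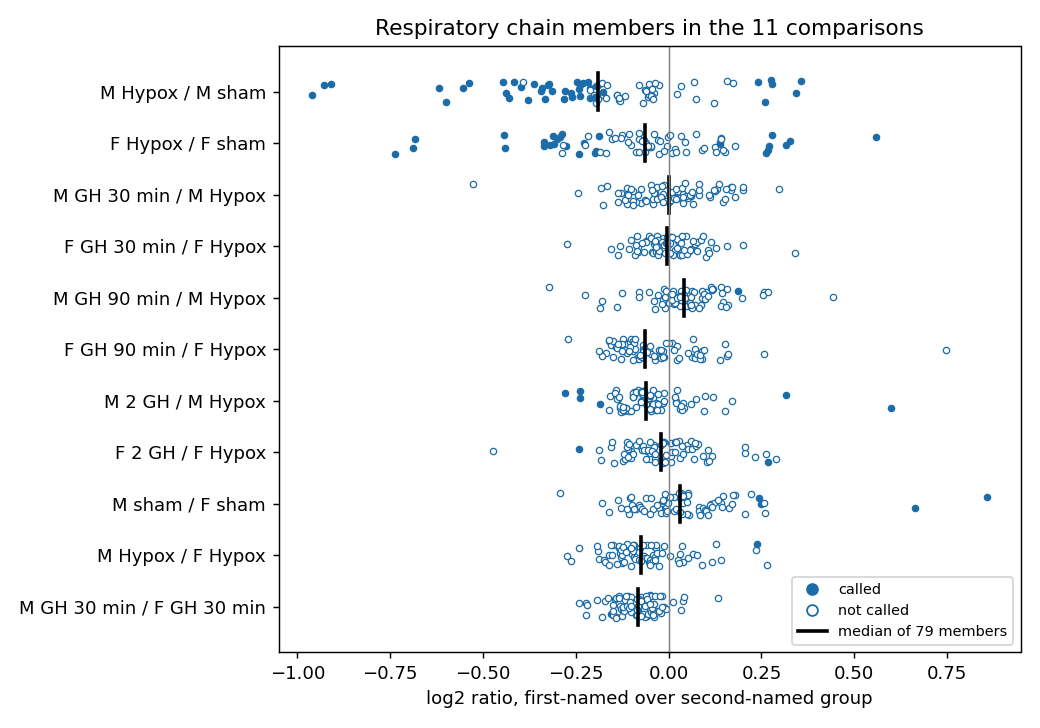
Log2 ratio of the 79 members in each of the 11 comparisons, first-named over second-named group; filled points were called and bars are medians. Hypox over sham holds most of the filled points, between -0.96 and 0.36 in males and between -0.74 and 0.56 in females.

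The direction of the members as a group depended on how the arrays were centred. Under loess their median was -0.19 in males and -0.06 in females, beside 0.03 and 0.01 for the other 2550 genes of the brightest 10%; under median centring it was 0.08 and 0.03, beside 0.24 and 0.10. With the scanner software's own log ratio the medians were -0.18 and -0.03, beside 0.06 and 0.05. Of the 71 members in the brightest 10%, 58 to 61 lay below the median of the other bright genes in males and 50 to 52 in females under the 4 settings shown. The deposited table, 1 of the 4, held the scanner's ratios to within 0.005 and is not a separate way of normalizing. Median centring called 2991 genes in males and 1897 in females, none of them a member. Of the members called lower, 25 of 36 in males and 19 of 19 in females still had a ratio below 0 under it, and all 6 and all 8 called higher stayed above 0. A lower median of the members than of other bright genes was thus seen under each setting, and an absolute fall was not.

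**Figure D5:**
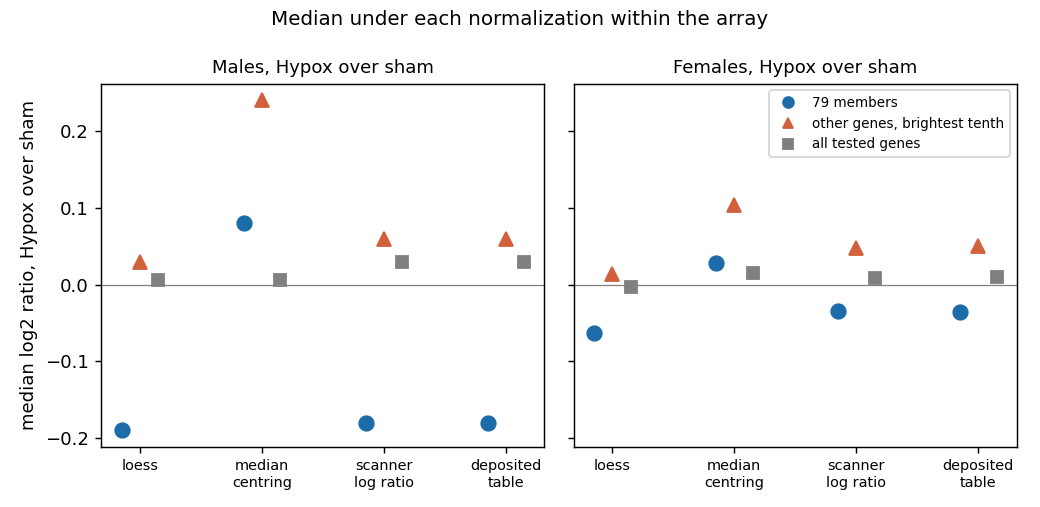
Median log2 ratio, Hypox over sham, in males (left) and females (right), of the 79 members, of the 2550 other genes of the brightest 10% and of all tested genes under 4 settings. The scanner's log ratio and the deposited table hold the same ratios to within rounding. The members lie below the other bright genes each time, and above 0 with median centring.

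Genes of muscle moved in some of the same comparisons. Of 18 skeletal muscle markers tested, 18 had a ratio below 0 in Hypox over sham males, 9 of them called lower, with medians of -2.06 and -2.57 on the 2 arrays and summed signals of 4344 and 8297 in Hypox males and 21451 and 69565 in sham males. On these arrays 13 and 17 of 18 markers were well above background in Hypox males, and 18 of 18 in sham males on both. On the arrays of Hypox males over Hypox females the summed signals of Hypox males were 3144 and 3010. The signal read for Hypox males thus differed between pairings. It was highest beside the brightest partner, 13495 beside 152327 in males given GH for 30 min (array 1). On array 2 of that pairing it was 2988 beside 2902. The log2 level of the Y-linked gene Ddx3y in sham females was 8.47 beside sham males and 6.12 beside Hypox females. The other Y-linked genes went the same way. Where the muscle signal of Hypox males came from, muscle RNA in their pools included, was not tested. In Hypox over sham females the medians were 0.01 and 0.04 and none was called. The summed signals were 3437 and 3442 in Hypox females and 3133 and 3166 in sham females. Of the members 19 fell in Hypox over sham females and 36 in Hypox over sham males, Ndufa1, Cox5a and Ndufaf4 among them in each sex. In males given GH for 30 min over Hypox males, array 1 had a muscle median of 2.80 and array 2 of -0.04, and the members' medians were -0.0026 and -0.0065. In males at 90 min the muscle medians were 1.75 and 0.03, and after 2 injections -0.0099 and 2.55, with members' medians of -0.07 and -0.06 on the last 2 arrays. In females after 2 injections over Hypox females they were -2.93 and -2.75, with summed signals of 10770 and 13251 after GH and 126191 and 127449 in Hypox females, and members' medians of -0.02 and -0.03. In males over females 30 min after GH they were 2.76 and -0.04. The muscle isoforms Cox6a2 (-2.94) and Cox8b (-3.96) were lower in Hypox over sham males and Cox7a1 (-1.01; adjusted p = 0.0914) was not called; in females they were 0.03, 0.17 and 0.38, none called. In sham males over sham females the 3 isoforms were 3.03, 3.94 and 1.27, not called, and the muscle medians 1.81 and 2.56. In Hypox over sham the lymphocyte markers were called higher for 6 of 7 in males and 4 of 7 in females. Of all genes 18.8% were called higher in males and 14.6% in females. Red cell markers were called lower for 3 of 4 in males and 3 of 4 in females, where the other 1 was higher. Of all genes 18.6% were called lower in males and 16.5% in females. The part of muscle, lymphocytes and red cells in the members' ratios was not tested.

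Some genes of the chain lie outside the symbol rule. Atpif1, the gene of the inhibitor protein of complex V, which its table symbol keeps out of the members, was 0.73 and 0.80 in Hypox over sham males (0.76 ± 0.06; adjusted p = 8.87e-07) and 0.15 and 0.26 in females (0.20 ± 0.06; adjusted p = 0.0188). The difference between the sexes was 0.56 (95% interval 0.38 to 0.74; adjusted p = 0.00156), and sham males were below sham females (-0.42 and -0.45; -0.44 ± 0.06; adjusted p = 0.000345). After 2 injections of GH it fell by 0.27 in males and was at 0.01 in females. Of 16 other chain genes, 4 fell and 0 rose in males, where 18.6% of all genes were called lower and 18.8% higher. In females 4 of them fell and 3 rose, where 16.5% of all genes were called lower and 14.6% higher. Gpd2, the mitochondrial glycerol phosphate dehydrogenase, a known thyroid hormone target, fell by 1.99 ± 0.11 in males and by 2.11 ± 0.11 in females, Cycs, cytochrome c, by 1.24 ± 0.10 and by 0.55 ± 0.10, and Cyc1, cytochrome c1 of complex III, by 0.48 ± 0.06 in males and was at -0.16 in females (adjusted p = 0.0646). The male ratios of Cycs and Cyc1 lay below the female ones, with differences of -0.69 (adjusted p = 0.0142) and -0.33 (adjusted p = 0.0379).

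The counts of the other lists stand beside 18.8% of all genes called higher and 18.6% lower in males, and 14.6% higher and 16.5% lower in females, and nothing particular to a list is read from them. Of 38 assembly factors tested, the Ndufaf members among them, 7 rose and 8 fell in males and 7 rose and 9 fell in females. Among the others Dmac2l (1.09 in males, 0.87 in females) and Cox16 (1.07 and 0.83) rose, and Foxred1 (-0.76 and -0.40) and Cox11 (-0.48 and -0.53) fell. Of 22 pyruvate dehydrogenase and citric acid cycle genes 5 rose and 7 fell in males and 5 rose and 5 fell in females; Idh2, the NADP-dependent isocitrate dehydrogenase of mitochondria, rose by 1.25 and 1.02, and Idh3a, a subunit of the NAD-dependent enzyme, fell by 0.98 in males and by 0.91 in females. Of 75 genes of the mitochondrial ribosome 11 rose and 29 fell in males (median -0.12) and 9 rose and 16 fell in females, with Mrpl38 at -0.90 and -0.62 and Mrpl23 at 0.82 and 0.65. Of 21 import genes 4 rose and 6 fell in males and 4 rose and 4 fell in females, with Timm23 at -0.45 and -0.34. Of 11 carriers 5 rose and 1 fell in males and 3 rose and 4 fell in females, and of 7 peroxide and superoxide enzymes Sod2 and Prdx5 fell in males (-0.48 each) and Sod2 in females (-0.45). Of 20 regulators 4 rose and 5 fell in males and 3 rose and 5 fell in females. Ppargc1a was 2.03 and 0.23 in Hypox over sham males (1.13 ± 0.37; adjusted p = 0.0282) and -1.04 and -1.17 in females (-1.11 ± 0.37; adjusted p = 0.0364), with a difference of 2.23 (adjusted p = 0.0234). Its relative Ppargc1b was at -0.29 in males (adjusted p = 0.153) and fell by 0.92 ± 0.15 in females (adjusted p = 0.000612), and Nrip1, which encodes a corepressor, fell by 1.55 ± 0.27 in females.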

How the data were processed

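RNA of liver pools was compared on 22 2-colour Agilent arrays. Per the file headers, Feature Extraction 9.5.1.1 or 9.5.3.1 made the deposited scanner files, from which the mean and background median signal intensity of each spot and flags were used. The deposited scanner log10 ratio, per the file headers red over green, and the deposited log2 ratio table, which per the labels holds normalized ratios, served as alternatives. The table's columns lay within 0.005 of the scanner ratios they matched, with medians of 0 except 1 at -0.02. Every column of the Hypox over sham and GH over Hypox comparisons carried the other replicate's number. Arrays 1 and 2 are numbered by the scanner files. In limma 3.58.1 (R 4.3.3), signals underwent normexp background correction (offset 50) and within-array loess, control spots at weight 0; spots flagged as outliers were left out. Ratios were turned by the dyes in the labels. Each gene, named through the RefSeq table by accession, was read by its brightest probe on average, and genes were tested if, for some comparison, both arrays had a signal well above background in either channel. One lmFit and eBayes model held 11 comparisons and a dye term (10 residual degrees of freedom, prior 2.50), with Benjamini-Hochberg adjustment over all tested genes. Array median signals were 294 to 376 in green and 415 to 522 in red. The 2 arrays per comparison limit the precision. The p-values rest on 1 residual variance per gene over all 11 comparisons, after the dye term. Some pools shared mice between arrays, so this spread is not purely one between independent pools. The model was also run on simulated data. The outcome is not given here, and no call rests on it.

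Named genes were, by rule, up to 3 called members of each complex with the largest ratios and up to 2 called against most of that complex in the Hypox over sham and sham comparisons, up to 4 called members elsewhere, fixed subunits whatever their values, and up to 4 called genes of each other list, of which examples are given. Ndufs8, Ndufv3, Ndufab1, Sdhc, and values of named members in further comparisons, were added after their values were seen. Members and lists were chosen with earlier results of these data known. Replicate numbers are shared between comparisons and do not mark a scan day. For some groups they went with like signals. The summed muscle signals of sham males on arrays 1 and 2 were 22343 and 68557 beside sham females, and 21451 and 69565 beside Hypox males. Sham male pools held 4 mice on array 1 and 3 on array 2 in both pairings. The sizes and signals are thus what pools used again under the same number would give, which was not tested. The main fit took the arrays as separate. Its SE and adjusted p-values may be too small where pools were shared. Residuals of arrays numbered 1 correlated between -0.36 and 0.87 over 55 pairs, and the block is an alternative only.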

Additional observations from a re-analysis of the deposited data

Results flagged for a closer look

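Ndufa7, an accessory subunit of complex I, was the member whose change with hypophysectomy was called different between the sexes by the contrast of both ratios: the male minus female difference was 0.37 ± 0.08, with 0.34 in Hypox over sham males (0.34 and 0.35 on the arrays) and -0.03 in Hypox over sham females (0.02 and -0.08). It was higher on 2 of 2 male arrays and on 1 of 2 female arrays. Over the alternatives run the adjusted p lay between 0.0144 with the replicate block and 0.89 with median centring, and 0.0454 with both probes averaged.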

How the results depend on the processing

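With median centring in place of loess 0 members were called in sham males over sham females, Hypox over sham males, Hypox over sham females, males at 90 min, males and females after 2 injections, Hypox males over Hypox females and the male minus female difference after hypophysectomy, and 1 in females at 90 min, where that centring also moved the median of all genes to 0.24. In Hypox over sham males it turned the called ratios of Sdhd to 0.0402, Uqcr10 to 0.0162, Atp5g3 to 0.0225, Ndufs1 to 0.0435 and Cox7a2 to 0.0832; the cause was not tested. The scanner's log ratio and the deposited table each called 0 in males at 90 min, 1 in females after 2 injections, and 0 in Hypox males over Hypox females and for the difference. The fit with no dye term called 2 between the sham groups, 0 in males at 90 min, 3 in males and 1 in females after 2 injections, 0 in Hypox males over Hypox females and 0 for the difference. The filter requiring signal on all 22 arrays called 1 in females at 90 min, and averaging probes called 4 in females after 2 injections and 2 for the difference. The loop model called 9 between the sham groups, 1 and 3 in males at 30 and 90 min, 1 in females at 90 min, 6 in females after 2 injections, 6 in Hypox males over Hypox females, 1 between the sexes at 30 min and 12 for the difference. The counts given here stand without the share of all genes called under each setting. A higher or lower count is thus not read as particular to the members. With the arrays of the comparison alone, which leave few degrees of freedom, 1 was called between the sham groups, 8 in Hypox over sham males, 2 in Hypox over sham females, and 0 in males at 90 min, in either sex after 2 injections, in Hypox males over Hypox females and for the difference.

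Leaving out 1 array of a comparison gave 24 to 29 calls in Hypox over sham males, 12 to 15 in Hypox over sham females, 0 to 2 in males after 2 injections, and 0 to 0 between the sham groups, in males at 90 min, in females after 2 injections, in Hypox males over Hypox females and for the difference. The replicate block called 2 in males at 90 min and moved no other count by over 1.5 times: 43 in Hypox over sham males and 27 in Hypox over sham females; of 87 named values 85 kept their side of the threshold, the exceptions being Ndufs3 in Hypox over sham females (adjusted p = 0.0509) and Cox7c between the sham groups (0.0505). Slide as a random block (correlation -0.052) called 42 and 29. Scan day could not be fitted as a block, since each comparison lay within a day.

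Limits: each comparison rests on 2 arrays, most members are bright genes whose ratio depends on how bright spots are centred, and the dye effect of many members is large beside ratios under about 0.2. Pools hide the spread between mice.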
